A study of Homo sapiens with 12 samples.

Results

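The genes described here encode complement components and receptors: C1QA, C1QB and C1QC (the chains of C1q), FCN1 (ficolin-1), C2, C3, CFP (properdin), and the receptors C3AR1, C5AR1 and CR1. They were taken by name from the gene count table, 10 of 78930 genes; 9 of the 10 were among the 24064 genes with enough counts to test, and C1QB was not. Complement is a cascade of plasma proteins that tags particles for uptake. C1q and the ficolins recognise targets, C2 and C3 belong to the enzyme steps that deposit C3 fragments, properdin stabilises the alternative pathway convertase, and fragments released on the way act on receptors of myeloid cells. Although the liver makes most plasma complement, monocytes and macrophages are a known source of C1q, ficolin-1 and properdin and carry the receptors.

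RNA was measured in OCI-AML3, a human acute myeloid leukaemia line with the cytoplasmic nucleophosmin mutant NPM1c, here of the genotype NPM1c-degron, which the cells of all groups share. The degron lets the small molecule dTAG-13 send the tagged protein for degradation. Of 4 groups with 3 libraries each, the cells of dTAG FL-NPM1c carried a lentiviral construct for full-length NPM1c, those of dTAG C-body null a construct named only C-body null in the labels, and those of dTAG mCherry a construct for mCherry. The 3 groups were given 500 nM dTAG-13 starting 48 hours from transduction, and after 24 more hours the mCherry-positive cells were collected by sorting. The group titled NTC DMSO names no construct. Its treatment label reads dTAG although its title reads DMSO, and NTC is left unexplained, so a difference from NTC DMSO cannot be assigned to NPM1c loss apart from the construct. The study used a single line, whose name carries a running number in each sample's label although OCI-AML3 alone stands in the protocol, and separate cultures for the replicates are not stated. The p-values therefore measure the spread between these libraries, which may be technical.

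The libraries held between 30519165 and 59925564 counts. Within dTAG mCherry, replicate 2 stood apart (chi-square per degree of freedom 19.9 and 36 against replicates 1 and 3, which were at 11 against each other). In NTC DMSO, replicate 3 differed from replicates 1 and 2 (18.3 and 17.5, against 3.93 between these), and pairs within dTAG FL-NPM1c and dTAG C-body null spanned 3.6 to 10.7. Without dTAG mCherry replicate 2 the members called were 8 in dTAG mCherry against NTC DMSO and 4 in full-length NPM1c against mCherry, the same counts as with it, and 2 in place of 1 in C-body null against mCherry. Over all genes the calls moved more. Without that library, higher and lower calls were 3062 and 2832, 3634 and 3200, and 761 and 638 in the same comparisons. With it they were 3096 and 2333, 1823 and 1912, and 52 and 91. Mitochondrial transcripts took 7.32% to 9.63% of counts in dTAG mCherry and 6.83% to 7.63% in the other groups. NPM1, whose transcript level does not report degradation of the protein, had a mean of 1651 ± 38.9 CPM (the count scaled by the library's effective size; SD, n = 3) in dTAG FL-NPM1c, 1922 ± 21.7 in dTAG C-body null, 1252 ± 171 in dTAG mCherry and 1429.6 ± 117 in NTC DMSO. Markers of AML cells were present, with CD33, MPO, ANPEP and FLT3 measured, KIT at 0 and CD34 below the count filter. The T cell genes CD3D, CD3E, CD3G and CD2, the erythroid and platelet genes HBB and GP9, the hepatocyte genes TTR, FGB and AHSG and the epithelial gene EPCAM were at 0 in all 12 libraries. Other genes of the same marker lists had counts, among them SERPINA1 (group means of 10.6 to 22.0 CPM) and FN1 (62.6 to 685 CPM). The summed level of each list is given below.

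Promoter sequences of 4 members are shown to put letters to the genes described below: C1QA, which had counts, its neighbour C1QB, which was listed at 0, and CR1 and C3AR1, which were lower with full-length NPM1c. Each is the 250 bases before the start that RefSeq lists (GRCh38.p14), written 5′ to 3′ on the gene's strand, at chr1:22636213-22636462 (plus strand, 1 of 2 entries for C1QA), chr1:22652986-22653235 (plus strand), chr12:8066360-8066609 (minus strand) and chr1:207495907-207496156 (plus strand). Capitals mark the letters that matched a searched motif, a C/EBP motif in both C1Q genes, the TATA box letters in C3AR1 and a MAF recognition sequence in CR1.
C1QA: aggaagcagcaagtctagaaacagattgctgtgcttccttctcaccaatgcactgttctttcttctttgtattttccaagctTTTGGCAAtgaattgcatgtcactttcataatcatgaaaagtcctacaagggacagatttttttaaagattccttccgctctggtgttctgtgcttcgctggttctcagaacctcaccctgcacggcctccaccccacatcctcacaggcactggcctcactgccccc
C1QB: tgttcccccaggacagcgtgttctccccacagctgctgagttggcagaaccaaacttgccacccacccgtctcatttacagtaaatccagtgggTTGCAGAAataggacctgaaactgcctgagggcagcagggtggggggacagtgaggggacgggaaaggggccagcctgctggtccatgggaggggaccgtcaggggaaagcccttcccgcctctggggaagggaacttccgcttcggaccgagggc
C3AR1: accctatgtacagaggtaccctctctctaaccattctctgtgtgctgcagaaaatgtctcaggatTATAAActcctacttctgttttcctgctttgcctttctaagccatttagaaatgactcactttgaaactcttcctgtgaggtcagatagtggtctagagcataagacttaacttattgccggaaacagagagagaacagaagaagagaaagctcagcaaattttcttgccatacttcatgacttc
CR1: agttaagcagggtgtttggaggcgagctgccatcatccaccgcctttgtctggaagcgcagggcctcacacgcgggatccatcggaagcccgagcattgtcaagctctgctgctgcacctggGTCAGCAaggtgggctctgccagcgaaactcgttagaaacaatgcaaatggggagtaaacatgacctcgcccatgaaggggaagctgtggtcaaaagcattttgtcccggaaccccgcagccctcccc

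The table of promoters holds 8 of the 10 members. Both strands were searched for the PU.1 core GAGGAA, the C/EBP motif TTGCNNAA, the interferon regulatory factor motif (GAAA, any 2 bases, GAAA), the MAF sequence TGCTGAC and TATAAA, which 23.6%, 9.05%, 3.02%, 3.43% and 10.7% of 35116 promoters held. Among the 8 members, 2 held the PU.1 core (C5AR1 and FCN1), 2 the C/EBP motif, 2 the MAF sequence (CFP and CR1) and 1 TATAAA, and no promoter held matches to 2 different motifs, so none overlapped. A match is a string of letters, not a shown binding site.

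In dTAG mCherry against NTC DMSO, 8 of the 9 tested members were called higher (edgeR's quasi-likelihood test, Benjamini-Hochberg adjusted p under 0.05 over all genes tested) and C2 was not called. Of all genes tested, 22.6% were called in this comparison and 12.9% were called higher and 9.69% lower. The median log2 fold change of the 9 members was 3.46, against -0.00 over all tested genes. The same 8 members were called higher in dTAG FL-NPM1c against NTC DMSO (27.9% of all genes called, 14.6% higher; median of the members 3.12) and in dTAG C-body null against NTC DMSO (26.6% called, 14.1% higher; median 3.54). These 3 comparisons share the NTC DMSO libraries. In all of them, C1QA, C1QC and C3 had passed the low-count filter only through the dTAG groups, where they are high. Their calls are therefore not independent of that filter, and the counts of called members include them. In bulk RNA, more cells of a type and more RNA per cell cannot be told apart.

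Between the groups that received dTAG-13 the members split when all libraries were used. With full-length NPM1c against mCherry, C1QA and C1QC were called higher while C3AR1 and CR1 were called lower (15.5% of all genes called, 7.58% higher and 7.95% lower). That split rested on dTAG FL-NPM1c replicate 1. Without it neither C1Q gene was called, and FCN1 and C5AR1 were called lower beside C3AR1 and CR1. Against the C-body null construct, full-length NPM1c gave lower C3, C3AR1, CR1 and FCN1 (9.68% of all genes called, 4.82% higher and 4.86% lower). C-body null against mCherry gave 1 call, higher C3 (0.594% of all genes called, 0.216% higher); over all genes, that comparison had 52 higher and 91 lower calls, against 761 and 638 without dTAG mCherry replicate 2. Over all genes, full-length NPM1c against mCherry had 1823 higher and 1912 lower calls, against 3634 and 3200 without dTAG mCherry replicate 2, 809 and 1377 without its replicate 1, 817 and 1057 without its replicate 3, and 697 and 1137 or 717 and 904 without dTAG FL-NPM1c replicate 1 or 2. Median log2 fold changes of the 9 tested members were -0.32, -0.43 and 0.23 in these 3 comparisons, and -0.00, 0.01 and -0.01 over all tested genes. Each pair of these comparisons shares a group, so their values are given side by side and not as separate evidence.

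**Figure D1:**
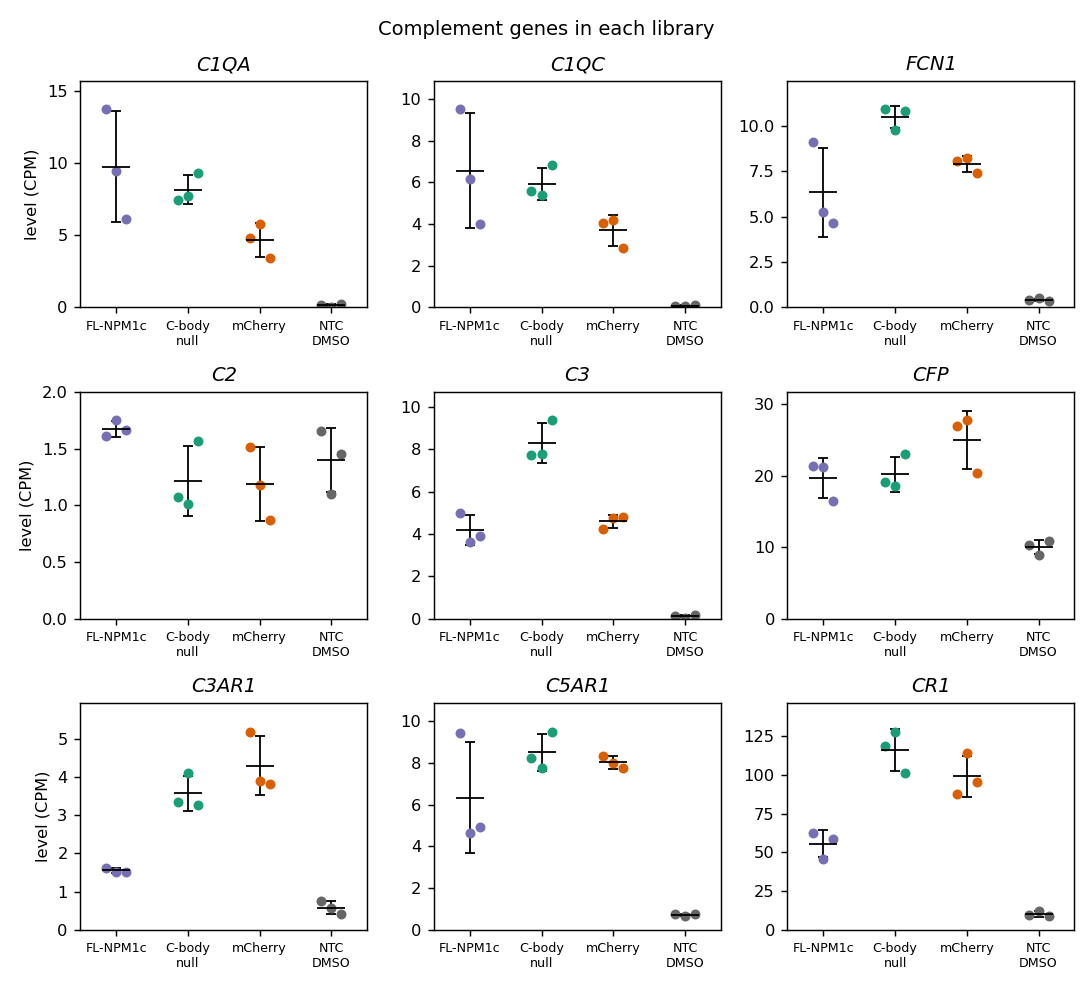
Level in CPM of the 9 tested complement genes in each library (points; replicates 1 to 3 from left to right), with the mean and SD of each group (bars). All but C2 lie higher in every dTAG library than in every NTC DMSO library. C3AR1 and CR1 are lower in dTAG FL-NPM1c than in the other dTAG groups, with no overlap.

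One library weighed on the dTAG FL-NPM1c values. Replicate 1 was the highest of the 3 for 8 of the 9 tested members (all but C2), while over all tested genes it was the highest for 33.3%. Differences that rest on it are given with and without it.

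C1QA and C1QC encode chains of C1q, the molecule that starts the classical pathway when it binds antibody or other ligands. The 3 chain genes lie together within 25.0 kb on chromosome 1 (plus strand, GENCODE 29 on GRCh38), C1QA at chr1:22636506-22639608, C1QC at chr1:22643630-22648110 and C1QB at chr1:22652762-22661538. C1QA (ENSG00000173372) stood at 13.7, 9.44 and 6.09 CPM in dTAG FL-NPM1c replicates 1, 2 and 3, at 7.45, 7.72 and 9.29 CPM in dTAG C-body null, at 4.78, 5.75 and 3.41 CPM in dTAG mCherry, and at 0.198, 0.050 and 0.211 CPM in NTC DMSO. Every dTAG library was far above every NTC DMSO library, and all dTAG FL-NPM1c and dTAG C-body null libraries were above all dTAG mCherry libraries. The NTC DMSO level rested on 18 counts in all, so the ratio of summed counts, 543 in dTAG mCherry to 18, was 32.1 with a 95% exact interval for counting error of 20.1 to 54.6. The fitted log2 fold change was 4.92 ± 0.42 (SE; adjusted p = 2.9e-07).

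C1QC (ENSG00000159189) had 9.50, 6.16 and 4.02 CPM in dTAG FL-NPM1c, 5.58, 5.39 and 6.82 CPM in dTAG C-body null, 4.06, 4.18 and 2.84 CPM in dTAG mCherry, and 0.0744, 0.050 and 0.132 CPM in NTC DMSO. Again NTC DMSO lay far below the rest; here 1 dTAG FL-NPM1c library fell within the dTAG mCherry range. Its summed counts were 427 in dTAG mCherry and 10 in NTC DMSO, a ratio of 45.5 (24.5 to 95.5), and the fitted log2 fold change was 5.41 ± 0.45 (adjusted p = 2.1e-07).

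Full-length NPM1c against mCherry gave a log2 fold change of 1.04 ± 0.24 for C1QA (2.06-fold, adjusted p = 0.0099) and 0.81 ± 0.24 for C1QC (1.75-fold, adjusted p = 0.032). Without dTAG FL-NPM1c replicate 1 neither was called (C1QA 0.69, adjusted p = 0.063; C1QC 0.41, adjusted p = 0.22). The C1QC call also ended without dTAG FL-NPM1c replicate 2 (0.85, 0.07), without dTAG mCherry replicate 1 (0.84, 0.061) or replicate 3 (0.66, 0.12), and with the 2 groups fitted alone (0.81, 0.061). C-body null against mCherry gave 0.80 ± 0.25 for C1QA (95% interval 0.31 to 1.28, adjusted p = 0.22) and 0.67 ± 0.24 for C1QC (0.20 to 1.15, adjusted p = 0.3), not called, although the libraries did not overlap for either gene. C1QA was called in it without dTAG mCherry replicate 2 (0.99, adjusted p = 0.045), and both were called with no low-count filter (0.81, adjusted p = 3.1e-05, and 0.68, adjusted p = 0.0045). Full-length NPM1c against C-body null gave 0.25 ± 0.23 for C1QA (interval -0.21 to 0.70) and 0.14 ± 0.23 for C1QC (-0.31 to 0.59), and both turned to the other sign without dTAG FL-NPM1c replicate 1 (-0.11 and -0.26). A difference of C1Q between these constructs was thus not detectable here.

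Summed over a group, C1QC had 0.674 counts per C1QA count in dTAG FL-NPM1c, 0.727 in dTAG C-body null, 0.786 in dTAG mCherry and 0.556 in NTC DMSO. Single libraries ranged over 0.652 to 0.695 in dTAG FL-NPM1c, 0.698 to 0.749 in dTAG C-body null, 0.728 to 0.850 in dTAG mCherry and, on at most 8 counts each, 0.375 to 1.00 in NTC DMSO. The dTAG FL-NPM1c libraries all lay below the dTAG mCherry ones, a difference that was not tested. C1QB, the remaining chain gene (ENSG00000173369), was listed at 0 in all 12 libraries, where 3 counts would have been 0.0501 to 0.0983 CPM. In all, 2801 of 19852 protein-coding genes were listed at 0 throughout, among them 2 of 82 ribosomal protein genes. How reads that overlap several genes were assigned is not given in the sources used here, so a C1QB count of 0 does not show that its RNA was lacking. A gene ID singled out after its values were seen, ENSG00000289692, has no symbol or position in the tables used here. Its counts followed those of C1QA, at 0.853 to 0.922 counts per C1QA count in the 9 dTAG libraries, with 5, 3 and 6 counts in NTC DMSO. Whether it overlaps a C1Q gene could not be looked up.

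**Figure D2:**
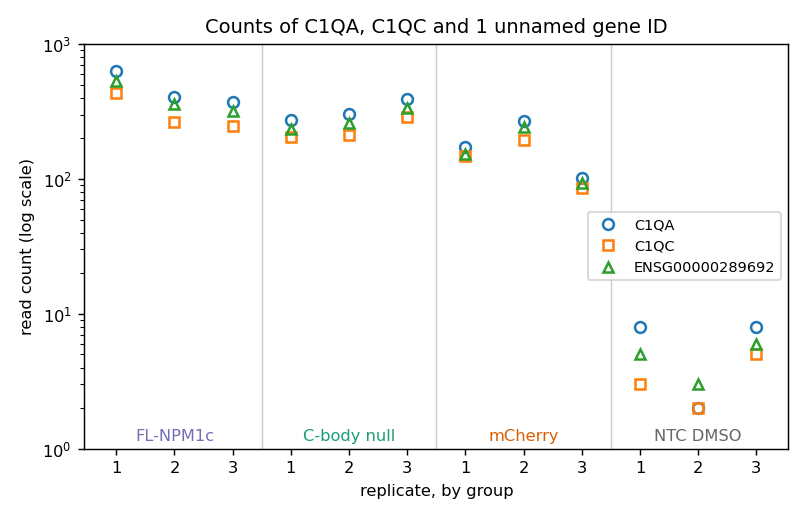
Read counts (log scale) of C1QA, C1QC and the unnamed ID ENSG00000289692 in each of the 12 libraries, not scaled for depth. The 3 sets of points move in parallel across the 9 dTAG libraries, with 2 to 8 counts in NTC DMSO and 85 to 627 elsewhere. C1QB is not drawn because it is at 0 throughout.

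FCN1 encodes ficolin-1, a lectin of monocytes and granulocytes that binds acetylated sugars and starts the lectin pathway (ENSG00000085265, chr9:134905890-134917963, minus strand). It stood at 9.13, 5.25 and 4.63 CPM in dTAG FL-NPM1c, 10.9, 9.79 and 10.8 CPM in dTAG C-body null, 8.04, 8.21 and 7.38 CPM in dTAG mCherry, and 0.397, 0.50 and 0.344 CPM in NTC DMSO. The C-body null libraries were the highest of all and overlapped no other group, while dTAG FL-NPM1c had 1 library above and 2 below the dTAG mCherry range. The gene was 18.9-fold higher in dTAG mCherry than in NTC DMSO (log2 4.24 ± 0.27, adjusted p = 8.2e-09). Full-length NPM1c against C-body null gave -0.74 ± 0.18 (adjusted p = 0.016), a call that ended without dTAG FL-NPM1c replicate 2 (-0.62, 0.094) or replicate 3 (-0.54, 0.073) and without dTAG C-body null replicate 1 (-0.71, 0.064). Against mCherry the value was -0.32 ± 0.19 (interval -0.69 to 0.04, adjusted p = 0.25), and without dTAG FL-NPM1c replicate 1 it was -0.71 (adjusted p = 0.0028). The value for C-body null against mCherry was 0.41 ± 0.18 (interval 0.05 to 0.77, adjusted p = 0.39).

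C3 is the protein at which all complement pathways meet (ENSG00000125730, chr19:6677704-6730562, minus strand). Its level was 4.99, 3.64 and 3.90 CPM in dTAG FL-NPM1c, 7.75, 7.79 and 9.37 CPM in dTAG C-body null, 4.23, 4.74 and 4.81 CPM in dTAG mCherry, and 0.124, 0.050 and 0.159 CPM in NTC DMSO. The dTAG C-body null libraries lay above all others, and the dTAG FL-NPM1c and dTAG mCherry ranges overlapped. Summed counts were 518 in dTAG mCherry and 13 in NTC DMSO, a ratio of 42.4 (24.6 to 80.2), with a fitted log2 fold change of 5.34 ± 0.26 (adjusted p = 4.7e-10). C3 was 1.81-fold higher with C-body null than with mCherry (log2 0.86 ± 0.14, adjusted p = 0.0088). Leaving out dTAG mCherry replicate 1 ended that call (0.80, adjusted p = 0.053), as did leaving out dTAG C-body null replicate 3 (0.76, 0.059). In the direct comparison of the constructs, full-length NPM1c was lower than C-body null, with a log2 fold change of -0.99 ± 0.14 (0.502-fold, adjusted p = 2.1e-04). Full-length NPM1c against mCherry was at -0.14 ± 0.15 (interval -0.43 to 0.15, adjusted p = 0.55). The 5′ end of C3 overlaps GPR108 on the same strand, so reads there are uncertain.

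C2 supplies the protease of the classical and lectin pathway convertase (ENSG00000166278, chr6:31897785-31945672, plus strand). It had 1.61, 1.75 and 1.67 CPM in dTAG FL-NPM1c, 1.07, 1.01 and 1.57 CPM in dTAG C-body null, 1.52, 1.18 and 0.869 CPM in dTAG mCherry, and 1.66, 1.10 and 1.45 CPM in NTC DMSO. Unlike the other tested members, its groups overlapped throughout, except that dTAG FL-NPM1c lay just above both other dTAG groups. Log2 fold changes were -0.23 ± 0.23 for dTAG mCherry against NTC DMSO (interval -0.68 to 0.22, adjusted p = 0.52), 0.48 ± 0.22 for full-length NPM1c against mCherry (0.05 to 0.91, adjusted p = 0.14) and 0.45 ± 0.22 against C-body null (0.03 to 0.88, adjusted p = 0.21). C2 overlaps CFB and a readthrough gene on its own strand and ZBTB12 and C2-AS1 on the other, and its values are therefore uncertain.

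CFP encodes properdin, the positive regulator of the alternative pathway, which myeloid cells release (ENSG00000126759, chrX:47623172-47630305, minus strand). Its values were 21.3, 21.2 and 16.5 CPM in dTAG FL-NPM1c, 19.1, 18.5 and 23.0 CPM in dTAG C-body null, 26.9, 27.7 and 20.3 CPM in dTAG mCherry, and 10.3, 8.95 and 10.9 CPM in NTC DMSO. NTC DMSO was lowest without overlap, and the dTAG groups overlapped one another. The increase in dTAG mCherry over NTC DMSO, 2.49-fold (log2 1.32 ± 0.14, adjusted p = 2.8e-06), was the smallest of the 8 called members. Full-length NPM1c against mCherry was at -0.35 ± 0.13 (interval -0.61 to -0.09, adjusted p = 0.083), and at -0.47 (adjusted p = 0.026) without dTAG mCherry replicate 3 or -0.34 (0.026) with no low-count filter. Properdin under C-body null against mCherry was at -0.31 ± 0.13 (interval -0.57 to -0.05, adjusted p = 0.38). The 3′ end of CFP overlaps AL009172.2 on the same strand, and reads there are uncertain.

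C3AR1 is the receptor for the anaphylatoxin C3a (ENSG00000171860, chr12:8058302-8066471, minus strand). It stood at 1.63, 1.52 and 1.51 CPM in dTAG FL-NPM1c, 3.35, 4.10 and 3.26 CPM in dTAG C-body null, 5.19, 3.90 and 3.81 CPM in dTAG mCherry, and 0.744, 0.575 and 0.423 CPM in NTC DMSO. The dTAG FL-NPM1c libraries were tightly grouped between NTC DMSO and the other dTAG groups and overlapped neither. Relative to mCherry the receptor fell by 1.47 ± 0.17 on the log2 scale with full-length NPM1c (0.361-fold, adjusted p = 3.6e-05), and relative to C-body null it fell by 1.20 ± 0.17 (adjusted p = 2.1e-04). Without dTAG FL-NPM1c replicate 1 the values were -1.54 (adjusted p = 2.3e-04) and -1.26 (adjusted p = 9.8e-04). It was still higher with full-length NPM1c than in NTC DMSO (1.41 ± 0.22, adjusted p = 2.1e-04), and dTAG mCherry exceeded NTC DMSO by 2.88 ± 0.20 (7.35-fold, adjusted p = 3.0e-08). The receptor under C-body null against mCherry was at -0.27 ± 0.16 (interval -0.58 to 0.05, adjusted p = 0.51).

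C5AR1 is the receptor for C5a, the chemoattractant released from C5 (ENSG00000197405, chr19:47290023-47322066, plus strand). Its level was 9.43, 4.66 and 4.95 CPM in dTAG FL-NPM1c, 8.25, 7.77 and 9.51 CPM in dTAG C-body null, 8.34, 8.00 and 7.75 CPM in dTAG mCherry, and 0.744, 0.675 and 0.766 CPM in NTC DMSO. NTC DMSO lay far below all others, and in dTAG FL-NPM1c replicate 1 was high while replicates 2 and 3 lay below the ranges of dTAG C-body null and dTAG mCherry. The gene was 11.0-fold higher in dTAG mCherry than in NTC DMSO (log2 3.46 ± 0.26, adjusted p = 5.4e-08). Full-length NPM1c was at -0.34 ± 0.20 against mCherry (interval -0.73 to 0.04, adjusted p = 0.24) and -0.43 ± 0.19 against C-body null (-0.81 to -0.05, adjusted p = 0.19). Without dTAG FL-NPM1c replicate 1 these values were -0.77 (adjusted p = 0.0014) and -0.85 (adjusted p = 5.4e-04). The comparison with C-body null was also called with no low-count filter (-0.43, adjusted p = 0.037).

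CR1 is the receptor for C3b and C4b, which also limits convertases (ENSG00000203710, chr1:207496147-207641765, plus strand). It had 62.3, 46.0 and 58.6 CPM in dTAG FL-NPM1c, 119, 128 and 101 CPM in dTAG C-body null, 88.0, 114 and 95.5 CPM in dTAG mCherry, and 9.30, 12.2 and 9.04 CPM in NTC DMSO. As with C3AR1, the dTAG FL-NPM1c libraries lay between NTC DMSO and the other dTAG groups without overlap. CR1 was 9.74-fold higher in dTAG mCherry than in NTC DMSO (log2 3.28 ± 0.15, adjusted p = 2.0e-10). It fell by 0.83 ± 0.13 on the log2 scale with full-length NPM1c relative to mCherry (0.561-fold, adjusted p = 6.7e-04) and by 1.06 ± 0.13 relative to C-body null (0.480-fold, adjusted p = 6.0e-05). Without dTAG FL-NPM1c replicate 1 the changes were -0.95 (adjusted p = 9.2e-04) and -1.17 (adjusted p = 1.2e-04). For CR1, C-body null against mCherry was at 0.23 ± 0.13 (interval -0.03 to 0.48, adjusted p = 0.5). CR1 has a closely related neighbour, CR1L, and an antisense gene, so shared reads are uncertain; the library kit kept strand, but the strand setting of the counting is not given in the sources used here.

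**Figure D3:**
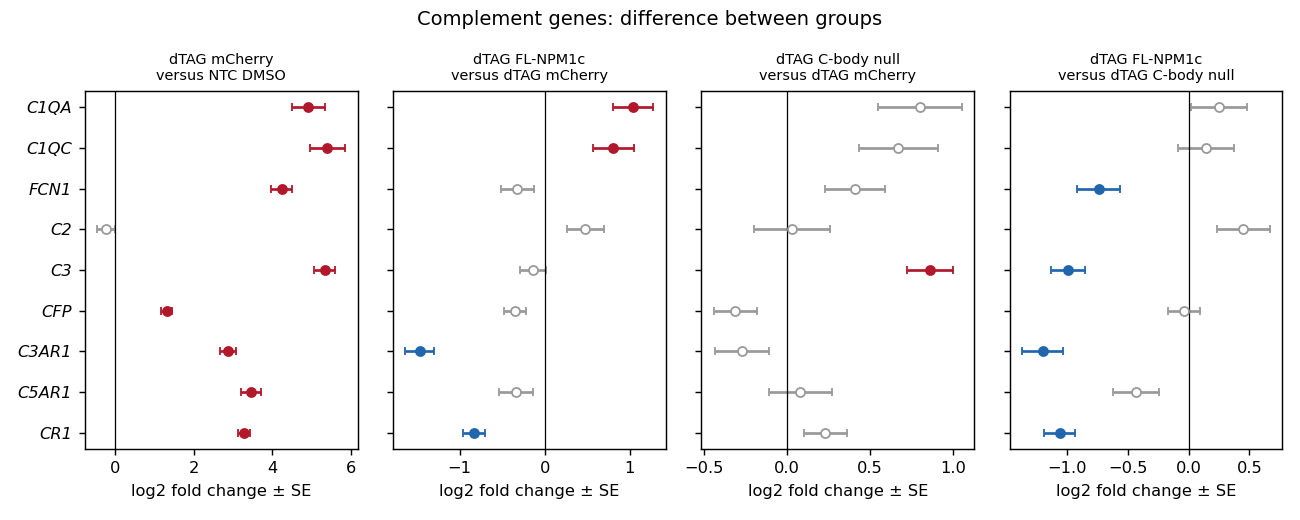
Log2 fold change ± SE of the 9 tested complement genes in 4 comparisons (the group in the upper line of each panel title over that in the lower line). Filled red points were called higher, filled blue points called lower and open grey points not called. The leftmost panel has 8 of 9 points called higher, and each panel has its own axis range.

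Per kilobase of exon, CR1 led with a mean of 7.88 CPM per kb in dTAG mCherry, followed by CFP at 4.44 and C1QA at 3.65, and C2 was last of the tested members at 0.215. With full-length NPM1c the order changed, with C1QA highest at 7.65, C1QC at 4.91 and CR1 at 4.42 CPM per kb. In dTAG C-body null CR1 was highest again at 9.21, ahead of C1QA at 6.41. NTC DMSO was led by CFP at 1.79 and CR1 at 0.808 CPM per kb. Differences of order between genes were not tested.

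Of 54 other complement genes, listed with earlier results of these data known, 26 were tested. In dTAG mCherry against NTC DMSO, 11 were called higher and 1 lower, with a median log2 fold change of 0.74; of all tested genes 12.9% were higher and 9.69% lower. Membrane and soluble regulators had 5 of 7 tested genes higher and other receptors 5 of 9. CR1L, a relative of CR1, was the highest by fold (log2 4.89 ± 0.72, 67 counts in dTAG mCherry against 2 in NTC DMSO, ratio 35.7 with an interval of 9.49 to 301). C5AR2, an alternative receptor for C5a, followed at 3.36 ± 0.33 (adjusted p = 1.5e-06). Both CR1L and C5AR2 had passed the low-count filter only through the dTAG groups, where they are high. The single lower gene was CALR, calreticulin, which binds C1q tails (-0.26 ± 0.07, adjusted p = 0.014). It was not called without dTAG mCherry replicate 1 (-0.25, 0.055), without NTC DMSO replicate 3 (-0.22, 0.05) or with the 2 groups alone (-0.25, 0.096).

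Full-length NPM1c against mCherry had 1 of the 26 higher and 6 lower (7.58% and 7.95% of all tested genes), and against C-body null 2 higher and 4 lower (4.82% and 4.86%). ITGAM, the alpha chain of complement receptor 3, had 3.20, 4.64 and 3.59 CPM in dTAG FL-NPM1c, 14.2, 13.9 and 13.8 CPM in dTAG C-body null, 13.7, 17.8 and 14.8 CPM in dTAG mCherry, and 3.55, 3.80 and 4.47 CPM in NTC DMSO. The dTAG FL-NPM1c libraries overlapped NTC DMSO and lay well below the other dTAG groups. The log2 fold change was -2.02 ± 0.14 against mCherry (adjusted p = 2.3e-07), -1.88 ± 0.14 against C-body null (adjusted p = 1.6e-07) and -0.05 ± 0.15 against NTC DMSO (interval -0.34 to 0.24, adjusted p = 0.83). ITGAX, the alpha chain of complement receptor 4, was at -1.48 ± 0.16 (adjusted p = 1.8e-05), -1.05 ± 0.16 (adjusted p = 4.0e-04) and 0.22 ± 0.17 (interval -0.11 to 0.56, adjusted p = 0.36) in the same comparisons. Their common beta chain ITGB2 averaged 687 CPM in dTAG FL-NPM1c, 698 in dTAG C-body null, 700.3 in dTAG mCherry and 406 in NTC DMSO.

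The regulators CD46 and CD55, which protect host cells from convertases, fell with full-length NPM1c against mCherry (-0.70 ± 0.09, adjusted p = 1.4e-04, and -0.67 ± 0.12, adjusted p = 0.0012) and against C-body null (-0.53 ± 0.09, adjusted p = 0.0012, and -0.53 ± 0.12, adjusted p = 0.0071). Both genes lie with CR1, CR1L and CR2 within 474.1 kb of chromosome 1, and CR2 was below the count filter. CR1L was at -1.01 against mCherry (adjusted p = 0.1) and -0.76 against C-body null (adjusted p = 0.27), and without dTAG FL-NPM1c replicate 1 it was called lower in both (-1.86, adjusted p = 0.0058, and -1.60, adjusted p = 0.017). CALR was the higher call against mCherry (0.36 ± 0.07, adjusted p = 0.004). Against C-body null the higher calls were the classical pathway protease C1R (1.43 ± 0.299 CPM in dTAG FL-NPM1c and 0.577 ± 0.128 CPM in dTAG C-body null, SD, n = 3 each; log2 1.30 ± 0.25, adjusted p = 0.003) and CFD, factor D (0.46 ± 0.13, adjusted p = 0.028). The CFD call ended without dTAG FL-NPM1c replicate 1 (0.42, 0.11) or replicate 2 (0.39, 0.15) and without dTAG C-body null replicate 1 (0.44, 0.11) or replicate 2 (0.37, 0.17). C-body null against mCherry had 0 of the 26 called by edgeR (0.594% of all tested genes), 5 at an unadjusted p under 0.05, and 2 by DESeq2 (PROS1 and CALR). Without dTAG mCherry replicate 2, edgeR called 3 (LRP1 and CALR higher, PROS1 lower).

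**Figure D4:**
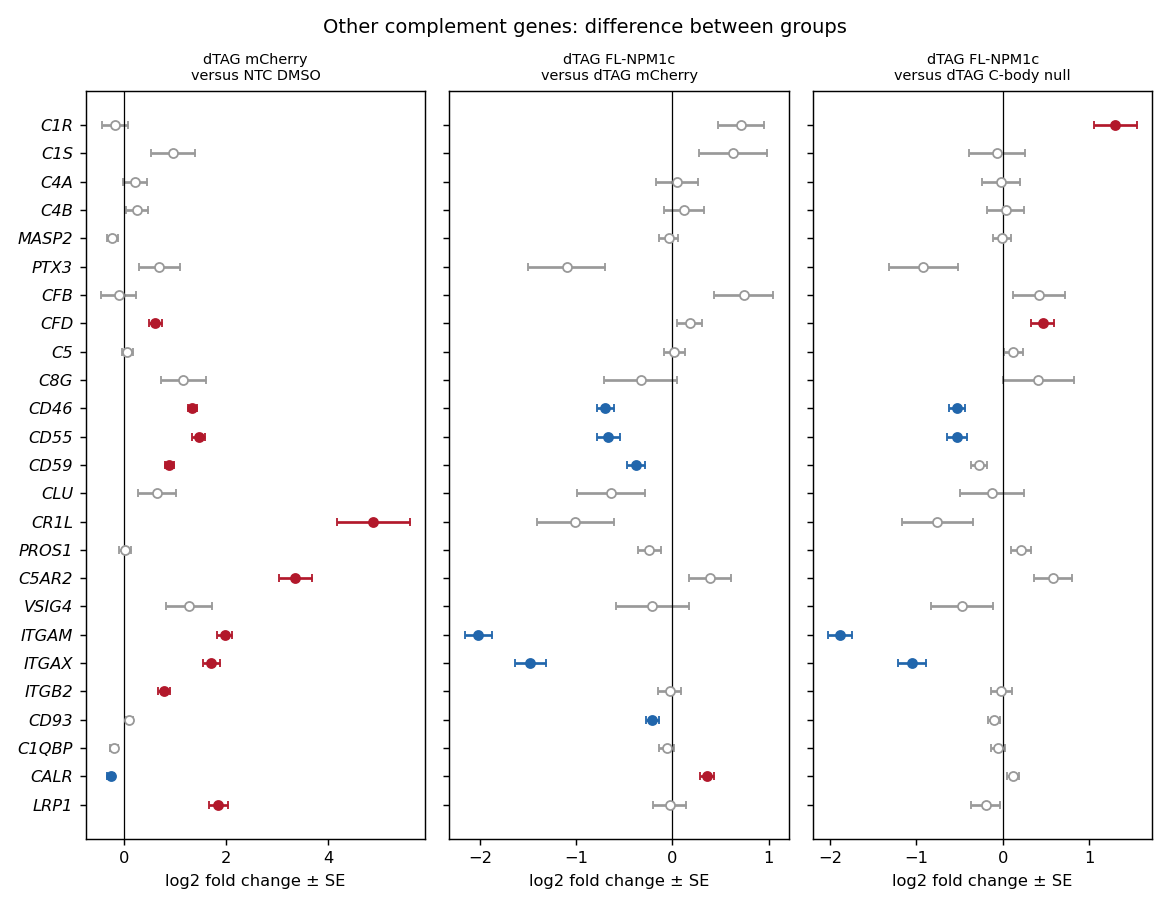
Log2 fold change ± SE of the other complement genes reported here in 3 comparisons, coloured as for the members (filled red higher, filled blue lower, open grey not called). ITGAM and ITGAX are at 1.97 and 1.71 in dTAG mCherry against NTC DMSO, and they have the most negative called values in both comparisons with full-length NPM1c on top.

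Against NTC DMSO, full-length NPM1c had 10 of the 26 higher and 2 lower (14.6% and 13.3% of all tested genes), and C-body null 12 higher and 2 lower (14.1% and 12.4%). CR1L and C5AR2 had the largest increases under full-length NPM1c (3.88 ± 0.80 and 3.75 ± 0.32), and likewise under C-body null (4.64 ± 0.74 and 3.17 ± 0.34). Lower calls under full-length NPM1c were MASP2, a protease of the lectin pathway (-0.27 ± 0.10, adjusted p = 0.046), and C1QBP, a C1q binding protein mostly found in mitochondria (-0.26 ± 0.08, adjusted p = 0.022). C-body null had lower C1R (-0.77 ± 0.27, adjusted p = 0.045) and PROS1, protein S (-0.44 ± 0.12, adjusted p = 0.01). Of the 6 libraries in each comparison, leaving out any 1 ended the C1R call (-0.60 to -0.89, adjusted p 0.052 to 0.16), leaving out any but NTC DMSO replicate 3 ended the MASP2 call (-0.24 to -0.32, adjusted p 0.072 to 0.16), and C1QBP was not called without dTAG FL-NPM1c replicate 2 or 3 or NTC DMSO replicate 1 or 2 (-0.24 to -0.26, adjusted p 0.07 to 0.083). PROS1 was not called without NTC DMSO replicate 1 (-0.37, adjusted p = 0.057). The C1R call also ended with DESeq2 (adjusted p = 0.052), library totals (0.06) and at least 50 counts in 3 libraries (0.051), and the MASP2 call with library totals (0.066) and at least 50 counts in 3 libraries (0.056).

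Values of the nearest protein-coding genes on either side of the members are given for context. Genes that overlap a member, such as GPR108 at C3 and CFB at C2, were not taken as neighbours. Of 16 neighbouring protein-coding genes, 12 were tested, and 3 were called higher and 1 lower in dTAG mCherry against NTC DMSO, where 22.6% of all tested genes were called. The higher ones were CR1L beside CR1, C5AR2 beside C5AR1, and TNFSF14, a TNF family cytokine, beside C3 (1.20 ± 0.16, adjusted p = 4.5e-05); TRIP10 on the other side of C3 was lower (-0.45 ± 0.11, adjusted p = 0.0054). EPHB2, the tested neighbour of the C1Q genes, was at 0.83 ± 0.44 (adjusted p = 0.19). Full-length NPM1c against mCherry had higher TRIP10 (0.58 ± 0.11) and EHMT2 beside C2 (0.38 ± 0.11, adjusted p = 0.035) and lower TNFSF14 (-2.07 ± 0.17, adjusted p = 1.2e-06), while C3 between TNFSF14 and TRIP10 was at -0.14 ± 0.15. These 3 of 12 neighbours compare with 15.5% of all tested genes, so neither count of neighbours stands out as a result about these loci.

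**Figure D5:**
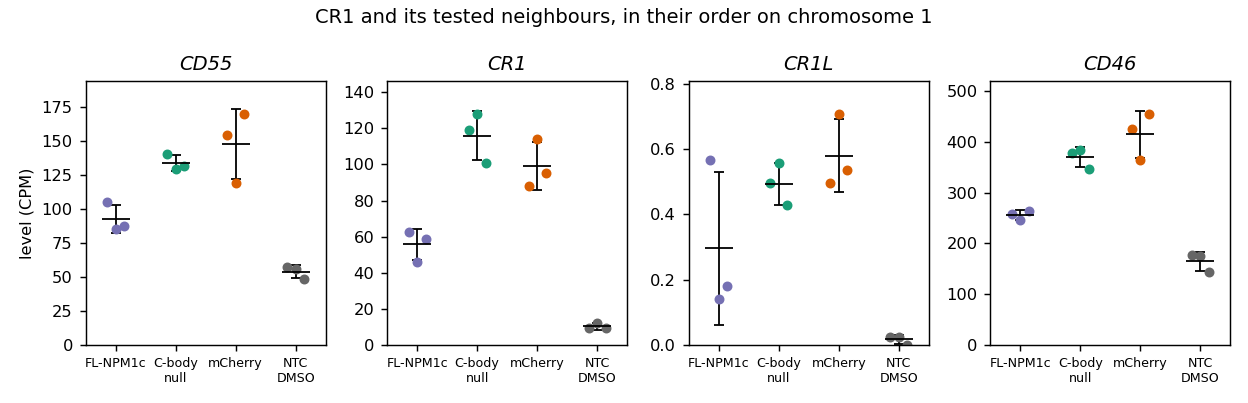
Level in CPM of CD55, CR1, CR1L and CD46 in each library (points), in their order on chromosome 1, with mean and SD (bars). For CD55, CR1 and CD46, dTAG FL-NPM1c lies between NTC DMSO and the other dTAG groups without overlap; CR1L has its replicate 1 (0.566 CPM) within the range of the other dTAG groups.

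Against NTC DMSO, the tested markers of monocytes and macrophages were called higher in each dTAG group, as were all tested members but C2. Of 12 such markers 11 were tested. In dTAG mCherry against NTC DMSO, where 12.9% of all tested genes were called higher, these 11 all were. They too include a marker that passed the low-count filter only through the dTAG groups. Their summed level ranged over 3206 to 3405 CPM in dTAG FL-NPM1c, 4742 to 4951 in dTAG C-body null, 3575 to 3979 in dTAG mCherry and 527 to 560.3 in NTC DMSO. Most of that sum was LYZ, with a mean of 2506 CPM in dTAG FL-NPM1c, 3773 CPM in dTAG C-body null, 2754 CPM in dTAG mCherry and 342 CPM in NTC DMSO. Full-length NPM1c against mCherry had 3 of the 11 lower (S100A8, S100A9 and CCR2) and 0 higher. C1QA and C1QC were called higher there, but not without dTAG FL-NPM1c replicate 1. Against C-body null, full-length NPM1c had 5 lower (the same 3 and LYZ and CSF1R). C-body null against mCherry had LYZ and CCR2 higher. Of all tested genes, 7.95%, 4.86% and 0.216% were called in these directions in the same 3 comparisons. The part of the markers in the complement values was not tested. Summed AML markers spanned 224 to 250.3 CPM in dTAG FL-NPM1c, 248 to 259.9 in dTAG C-body null, 229 to 265 in dTAG mCherry and 147 to 162 in NTC DMSO. T and NK cell markers summed to 0.725 to 1.37 CPM and erythroid and platelet markers to 0.124 to 0.560 CPM over all groups. B and plasma cell markers summed to 5.69 to 6.45 CPM in dTAG FL-NPM1c and 1.48 to 3.25 in the other groups. The epithelial and fibroblast sum was nearly all FN1, with a mean of 685 CPM in dTAG FL-NPM1c, 509.9 CPM in dTAG C-body null, 516 CPM in dTAG mCherry and 62.6 CPM in NTC DMSO. The hepatocyte sum was nearly all SERPINA1, which myeloid cells also express, with a mean of 10.6 CPM in dTAG FL-NPM1c, 19.1 CPM in dTAG C-body null, 22.0 CPM in dTAG mCherry and 10.9 CPM in NTC DMSO.

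Profiles most like those of the members were ranked by Pearson's r of log2 CPM over the 12 libraries among 16329 genes with a mean of at least 1 CPM. For the C1Q genes the leading 5 were TYMP (0.993), AC009690.2 (0.991), CD209 (0.990), PHLDA3 (0.989) and DDIT4 (0.988). For C3 they were AC020656.1 (0.992), CSF1R (0.992), CHST15 (0.991), LYZ (0.991) and AC104211.1 (0.990). The libraries fall into groups, chiefly NTC DMSO against the rest, so such values are a description of that split and carry no test.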

How the data were processed

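Total RNA of the 12 samples was prepared with Trizol and sequenced as strand-keeping mRNA libraries, per the labels' protocols. The authors deposited raw gene counts (whole numbers) by Ensembl ID in 1 table. STAR, featureCounts, DESeq2 and hg38 are named, without versions, in the submitters' processing notes; annotation and strand setting are not given in the sources used. Of 78936 lines, 6 broken ones (2 genes) were left out. Symbols came from a gene name table (42177) and GENCODE 29 (15568); columns were matched by library number. Groups followed the titles.

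Counts were analysed with edgeR 4.0.16 (R 4.3.3): filterByExpr by group (24064 genes kept, 0.0795% of counts removed), TMM factors (0.975 to 1.02) and 1 robust quasi-likelihood fit over all 12 libraries. A standard error is the size of the log2 fold change over the square root of F, and intervals cover 95%. The fit was tested on simulated data. CPM use effective library sizes, and CPM per kb the exon length of GENCODE 29. No 2 libraries of 1 group agreed within sampling noise. Counting intervals are exact (Clopper-Pearson) and cover counting error only.

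The members and lists were chosen with earlier results of these data known. Named are all 10 members, up to 3 called other complement genes per direction and comparison with the largest change, ITGAM and ITGAX always, neighbours, the 5 closest profiles and NPM1; CD55, ITGB2 and ENSG00000289692 were added after their values were seen. Some genes that enter the counts and sums are not reported here by name. As alternatives served DESeq2 1.42.0, RLE factors, unscaled library totals, no filter, at least 50 counts in 3 libraries, the 2 groups alone, a replicate block and each library left out. The same for the other complement genes was added after seeing the data. Python 3.11.15 read the table and drew figures.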

Additional observations from a re-analysis of the deposited data

How the results depend on the processing

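Over all alternatives, 675 of 702 values of single members kept their direction and their side of the threshold, 11 lost the call, 9 gained it and 7 changed sign, all 7 among values not called and with 1 library left out. All of these changes fell in comparisons between dTAG groups and none in those with NTC DMSO, so the pooled figure understates them there. With a library left out, C-body null against mCherry ranged over -0.21 to 0.23 for C2 (-0.12 without dTAG mCherry replicate 3, -0.21 without dTAG C-body null replicate 3) and -0.01 to 0.14 for C5AR1 (-0.01 without dTAG C-body null replicate 3). Full-length NPM1c against C-body null ranged over -0.11 to 0.50 for C1QA and -0.26 to 0.40 for C1QC (lowest without dTAG FL-NPM1c replicate 1) and -0.13 to 0.07 for CFP (0.07 without dTAG FL-NPM1c replicate 3, 0.03 without dTAG C-body null replicate 3). The count of members called in C-body null against mCherry, 1, was 3 with no low-count filter and 0 to 2 with a library left out (0 without dTAG mCherry replicate 1 or dTAG C-body null replicate 3, 2 without dTAG mCherry replicate 2). In the other 5 comparisons it stayed within 1.5 times under every alternative, but a similar count can hold different members. In full-length NPM1c against mCherry without dTAG FL-NPM1c replicate 1, C1QA and C1QC lost their higher calls. FCN1 and C5AR1 gained lower calls there, so no member was called higher. Among other complement genes, the count in C-body null against mCherry, 0, was 2 with DESeq2 and 0 to 3 with a library left out, and that in C-body null against NTC DMSO, 14, was 9 with at least 50 counts in 3 libraries. That filter tests fewer genes, but C1R was still tested and lost its call (adjusted p = 0.051). The causes of these changes were not tested.

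With the replicate block the members called were 8, 4, 1, 4, 8 and 8 in dTAG mCherry against NTC DMSO, full-length NPM1c against mCherry, C-body null against mCherry, full-length NPM1c against C-body null, and full-length NPM1c and C-body null against NTC DMSO, the same counts as without it. Between same-numbered libraries, the deviations from the group means correlated at -0.307 to 0.159. With so few libraries per group, such values cannot show whether the numbers pair the libraries. The other complement genes called with the block were 12, 6, 0, 6, 11 and 13 in the same comparisons, against 12, 7, 0, 6, 12 and 14 without it; the block ended the calls of CD93 in full-length NPM1c against mCherry (adjusted p = 0.08), MASP2 in full-length NPM1c against NTC DMSO (0.075) and C1R in C-body null against NTC DMSO (0.06). Over all genes, C-body null against mCherry had 52 higher and 91 lower calls, and 199 and 163 with DESeq2, 174 and 194 with no filter, 30 and 33 with the 2 groups alone and 32 and 54 with the replicate block. Full-length NPM1c against C-body null had 1160 and 1169, and 2312 and 2098 with the 2 groups alone, but 682 and 696 or 612 and 775 without dTAG C-body null replicate 1 or 2, and 686 and 825 or 699 and 666 without dTAG FL-NPM1c replicate 1 or 2. The comparison of full-length NPM1c with mCherry, with 1823 and 1912, had 1220 and 1292 with the 2 groups alone and 1175 and 1346 with the replicate block, and with a library left out between 697 and 3634 higher and between 904 and 3200 lower. dTAG mCherry against NTC DMSO had 3096 and 2333, and 2235 and 1167 with the 2 groups alone. With a library left out, full-length NPM1c against NTC DMSO, with 3507 and 3205, had between 2229 and 3932 higher and between 1792 and 3875 lower. The NTC DMSO values of C1QA, C1QC and C3 rest on 18, 10 and 13 counts, which limits those folds.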
